A study of Mus musculus with 22 samples.

Results

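The Tnfsf11 locus was examined in Treg cells of the mouse (Foxp3-dependent lymphocytes that restrain immune responses) as every called peak that touched the gene body or the 100 kb on either side of it. Of 362285 peaks in 18 lists, 145 lay in this window, chr14:78177446-78408043 of mm10. The gene itself lies on the minus strand at chr14:78277446-78308043, so sequence upstream of its start has the higher coordinates. Distances below run from the start at 78308043, with upstream positions negative.

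IkE5 cells, whose genotype the labels give as IkE5-deletion, were set against wild-type (WT) cells. All were primary Treg cells from spleen and lymph nodes, stimulated for 1 h with a commercial cocktail and fixed with 1% formaldehyde. Acetylation of histone H3 at lysine 27 (H3K27ac, typical of enhancers and promoters in use), the acetyltransferase p300, the calcium-activated factor NFAT1 and the Treg factor Foxp3 each had 2 libraries per genotype. The zinc finger factor Ikaros, the product of Ikzf1, had 2 libraries in WT only, so the lists hold no check of how much Ikaros the IkE5 cells retained. The labels do not expand IkE5, and they give neither sex, age nor strain of the animals, nor whether libraries came from separate animals or pools.

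Tnfsf11 encodes RANKL, a membrane-bound and shed cytokine of the tumour necrosis factor family. It binds the receptor RANK (Tnfrsf11a) and drives the formation of osteoclasts, the development of lymph nodes and the maturation of thymic epithelium, while the decoy receptor osteoprotegerin (Tnfrsf11b) captures it. Activated T cells make RANKL. In mice the gene is controlled by a series of distant enhancers, most of them upstream of its start, and calcium signalling through NFAT is among the signals that act on T cell cytokine genes.

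The peaks were selected on position alone, but the gene was chosen by values of these same lists, its H3K27ac covered length and its H3K27ac regions found in the IkE5 lists only. Its H3K27ac values are therefore a description without a test. With 2 libraries against 2, a 2-sided exact permutation test could not give a p below 0.333 for any single measure.

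The lists differed in length, and read depth is unknown because a list holds no reads. H3K27ac covered 72.9 and 62.1 Mb of the genome in the IkE5 libraries and 79.6 and 54.6 Mb in the WT libraries. NFAT1 had 4908 and 3435 peaks in IkE5 and 7825 and 6850 in WT, p300 11670 and 8971 in IkE5 and 11457 and 8775 in WT, and Foxp3 21619 and 17265 in IkE5 and 20608 and 16526 in WT. Library 2 was the shorter list for each of these targets in each genotype. Ikaros had 22297 and 26641 peaks. All 7 Treg markers examined, Foxp3, Il2ra, Ctla4, Ikzf2, Tnfrsf18, Cd4 and Cd3e, carried H3K27ac within 10 kb in all 4 H3K27ac lists.

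The promoter is shown because H3K27ac covered it completely in both IkE5 and both WT lists, whereas none of the 14 factor lists had a peak there. These are the 250 bases before the start, chr14:78308044-78308293, minus strand, from RefSeq (GRCm38.p6, the assembly of mm10), with matches to the NFAT core, the CCAAT box and the TATA box in capitals.
Tnfsf11 promoter: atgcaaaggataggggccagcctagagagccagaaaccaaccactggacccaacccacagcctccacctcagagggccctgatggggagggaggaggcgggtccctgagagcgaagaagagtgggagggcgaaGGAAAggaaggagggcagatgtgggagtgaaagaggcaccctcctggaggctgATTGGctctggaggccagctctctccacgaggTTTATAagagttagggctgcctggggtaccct
The letters GGAAA (NFAT core), GGGAA (Ikaros core), TGTTTA (forkhead core), CCAAT and TATAAA were searched on both strands. GGAAA occurred once, its first base 117 bases before the start, and occurs in the same stretch of 55.6% of 32851 RefSeq promoters. CCAAT and TATAAA occurred once each on the opposite strand, beginning at -64 and -32, and are found in 33.8% and 12.4% of promoters. GGGAA and TGTTTA, present in 56.2% and 12.0% of promoters, were not among these 250 bases. No other sequence of the locus is shown.

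H3K27ac spread over more of the Tnfsf11 locus in IkE5 Treg cells, and it did so both upstream of the gene and inside it. Within the window it covered 50.4 and 48.0 kb in the IkE5 libraries and 20.5 and 4.96 kb in the WT libraries. Both IkE5 libraries were above both WT libraries, and the WT libraries differed from each other more than the IkE5 libraries did. The means were 49.2 ± 1.66 kb in IkE5 and 12.7 ± 11.0 kb in WT (SD, n = 2 each). With each list scaled by its genome-wide covered length, the difference was 2.14 on the log2 scale with 1000 bp added to each length, which understates the change of short coverages. It was 1.38 between the libraries numbered 1 and 2.90 between those numbered 2. WT library 1 covered less of the window than either IkE5 library although its list covered more of the genome than either.

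The gain was laid out in named stretches. In the gene body H3K27ac covered 16.9 and 17.5 kb in IkE5 and 6.19 and 3.19 kb in WT, and in the 100 kb upstream 33.4 and 30.0 kb in IkE5 and 14.3 and 1.77 kb in WT. Downstream of the gene a single peak of 500 bp in IkE5 library 2 was the only H3K27ac in 100 kb. The peak over the start was present in all 4 lists. It was 9.32 and 8.60 kb wide in IkE5 and 4.47 and 2.33 kb wide in WT, and it reached 8.5 and 7.8 kb into the gene in IkE5 and 3.8 and 2.1 kb in WT. Between 10 and 20 kb inside the gene, H3K27ac covered 6.78 and 6.65 kb in IkE5 and was listed at 0 in both WT libraries. Upstream, the stretch from -50 to -40 kb had 7.03 and 7.43 kb in IkE5, against 2.63 kb in WT library 1 and 0 in WT library 2. A stretch around -35 kb was acetylated in both IkE5 libraries and in neither WT library. Base by base, 23.6 kb of the window were covered in both IkE5 and neither WT library, and 0 kb the other way round. All bases covered in WT library 2 and 84.2% of those covered in WT library 1 were covered in both IkE5 libraries.

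**Figure D1:**
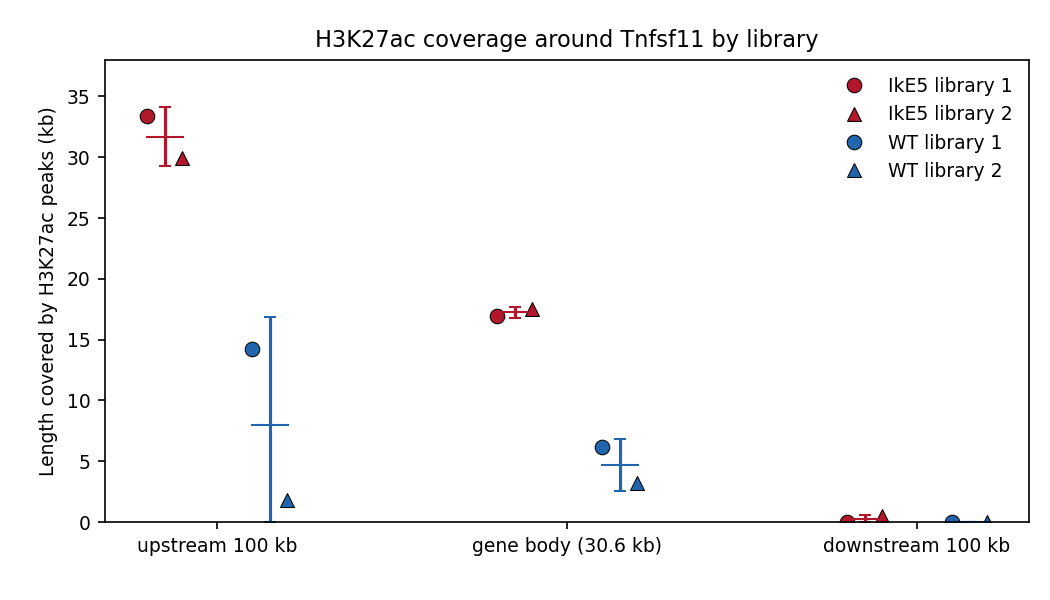
Length covered by H3K27ac peaks (kb) upstream of, inside and downstream of Tnfsf11, with 1 point per library, the mean as a bar and the SD as error (n = 2, cut at 0). Both IkE5 libraries lie above both WT libraries upstream (33.4 and 30.0 kb against 14.3 and 1.77 kb) and in the gene body (16.9 and 17.5 kb against 6.19 and 3.19 kb).

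Overlapping peaks (1 bp or more) of a target's 4 lists were merged into a region, and a region was called IkE5 only when both IkE5 lists and neither WT list had a peak there, and WT only in the reverse case. Of the 29 H3K27ac regions of the window, 7 were IkE5 only and 0 were WT only, against 3.90% and 4.69% of the 64752 H3K27ac regions of the genome. The window was chosen for this contrast, so these shares describe it and support nothing further. Within the gene lay 4 of the 7, the widest at chr14:78286785-78289830 (3046 bp) and chr14:78289967-78292878 (2912 bp). Upstream lay 3, of which the widest was chr14:78341969-78344520 (2552 bp), centred at -35.2 kb. There were 3 regions in all 4 lists (31.2% of regions over the genome), at the start (chr14:78299154-78308883), at -13.4 kb (chr14:78318391-78324472) and at -75.2 kb (chr14:78380033-78386355). The other 19 regions were present in other combinations, and 14 of them in a single list. Leaving out WT library 1 gave 12 IkE5 only regions, leaving out IkE5 library 1 gave 17 and leaving out IkE5 library 2 gave 20. Without WT library 2, the shortest H3K27ac list, the number stayed at 7 and 3 regions became WT only. A list left out loosens the rule, so the count of either class could only stay or rise. The shares over the genome were not recomputed under the looser rule.

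Among all genes Tnfsf11 stood near the top for this mark, but it was chosen by these same values, so its ranks only describe it. Of 17099 protein-coding genes with at least 1000 bp of mean coverage in the gene and 100 kb on each side, it ranked 12 from the highest by log2 difference, where the median gene was at -0.02 and the 95th percentile at 0.62. In the gene and 10 kb on each side it ranked 55 of 12711. Both IkE5 lists exceeded both WT lists for 21.7% of genes in the wider and 18.4% in the narrower window, so that order alone is common. Counting regions, 22 of 21883 genes, Tnfsf11 among them, had 7 or more IkE5 only H3K27ac regions in the gene or within 100 kb. Neighbouring genes share such windows and are not independent.

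**Figure D2:**
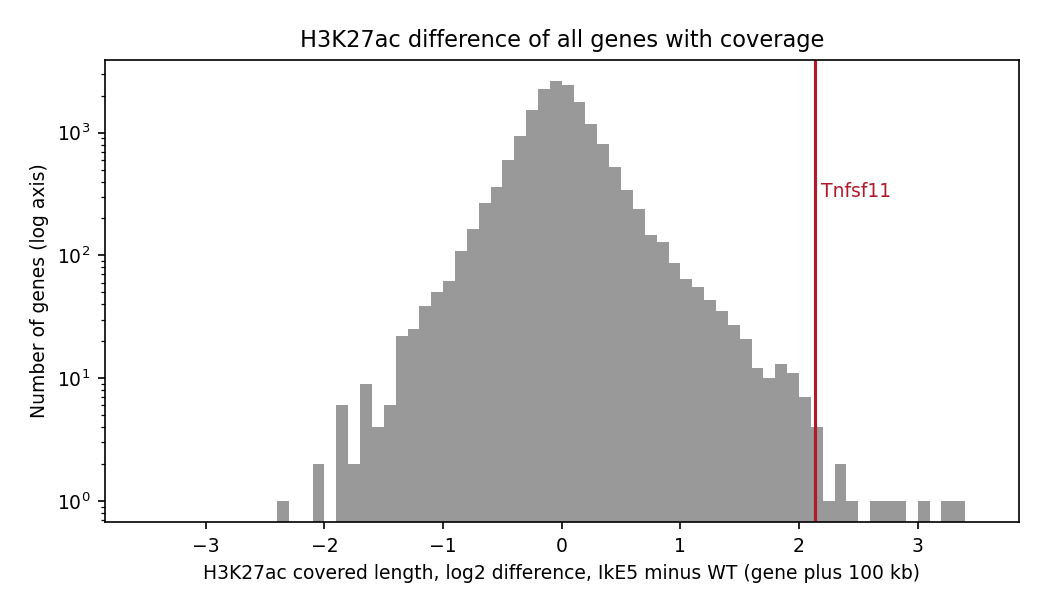
Number of genes (log axis) by the log2 difference in H3K27ac covered length, IkE5 minus WT, in the gene and 100 kb on each side, over 17099 genes. Tnfsf11, at 2.14 (red line), lies in the upper tail, far from the median of -0.02. The gene was chosen by its H3K27ac covered length, so its place here is a description.

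The factors bound the locus at 13 sites, counted by joining overlapping peaks of the 14 lists of Foxp3, p300, NFAT1 and Ikaros. Of these, 7 lay upstream, 4 in the gene and 2 downstream, and 4 were found in a single list. Of the 7 upstream sites 6 had peaks of 2 or more factors, whereas those in and beyond the gene had peaks of Foxp3 and Ikaros and none of p300 or NFAT1.

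**Figure D3:**
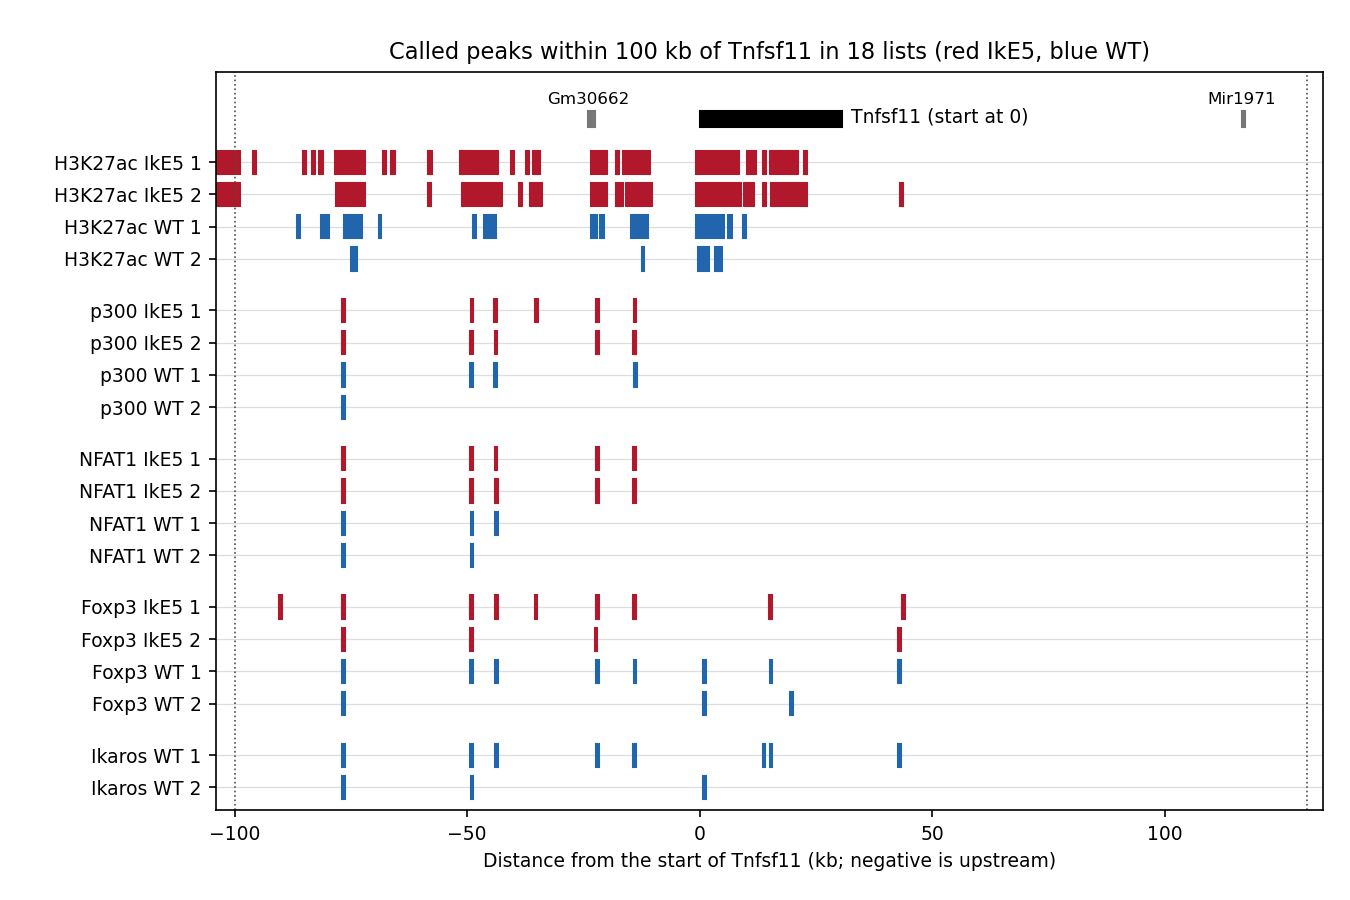
Called peaks of each of the 18 lists (rows, IkE5 in red and WT in blue) along the window, by distance from the start of Tnfsf11 in kb. Dotted lines mark the window's ends, grey bars the lncRNA gene Gm30662 and the microRNA gene Mir1971, and peaks under 600 bp are drawn 600 bp wide. H3K27ac fills more of the upstream side and of the gene in the IkE5 rows, and p300 and NFAT1 peaks lie upstream in all rows.

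The site at -76.5 kb (chr14:78384315-78384869) was the one site held by all 14 factor lists, Ikaros included. H3K27ac overlapped it in both IkE5 libraries and in WT library 1. In WT library 2 H3K27ac peaks lay nearby, the closest of them at -75.0 to -74.5 kb. At this distal element p300, NFAT1 and Foxp3 were present in both genotypes.

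Next came the site at -49.0 kb (chr14:78356757-78357320), with 12 of 14 lists. NFAT1 was there in both IkE5 and both WT libraries and Ikaros in both WT libraries, while p300 and Foxp3 were there in both IkE5 libraries and in WT library 1. H3K27ac overlapped it in both IkE5 libraries and in neither WT library. At -43.8 kb (chr14:78351510-78352137), p300 and NFAT1 were found in both IkE5 libraries and in WT library 1, and Foxp3 in library 1 of each genotype. In IkE5 a single H3K27ac peak of 6.79 kb in library 1 and 8.47 kb in library 2 spanned both of these sites, whereas WT library 1 had a peak of 1.63 kb at -43.8 kb and 2 of 500 bp further upstream, of which chr14:78356230-78356729 ended just short of the -49.0 kb site.

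Closer to the gene, NFAT1 peaks were called in the IkE5 lists and not in the WT lists. At -22.1 kb (chr14:78329706-78330572) p300 and NFAT1 each had a peak in both IkE5 libraries and in neither WT library, whereas Foxp3 was there in both IkE5 libraries and WT library 1, and Ikaros in WT library 1. The site touches the lower-coordinate end of the lncRNA gene Gm30662 (chr14:78330572-78332098), which lies on the same strand as Tnfsf11 in RefSeq. At -14.0 kb (chr14:78321676-78322311) NFAT1 again had a peak in both IkE5 libraries and in neither WT library, p300 in both IkE5 libraries and WT library 1, and Foxp3 in library 1 of each genotype. A small site at -35.2 kb (chr14:78342963-78343493) had Foxp3 and p300 in IkE5 library 1 only, inside the acetylated stretch found in both IkE5 libraries and in neither WT library.

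**Figure D4:**
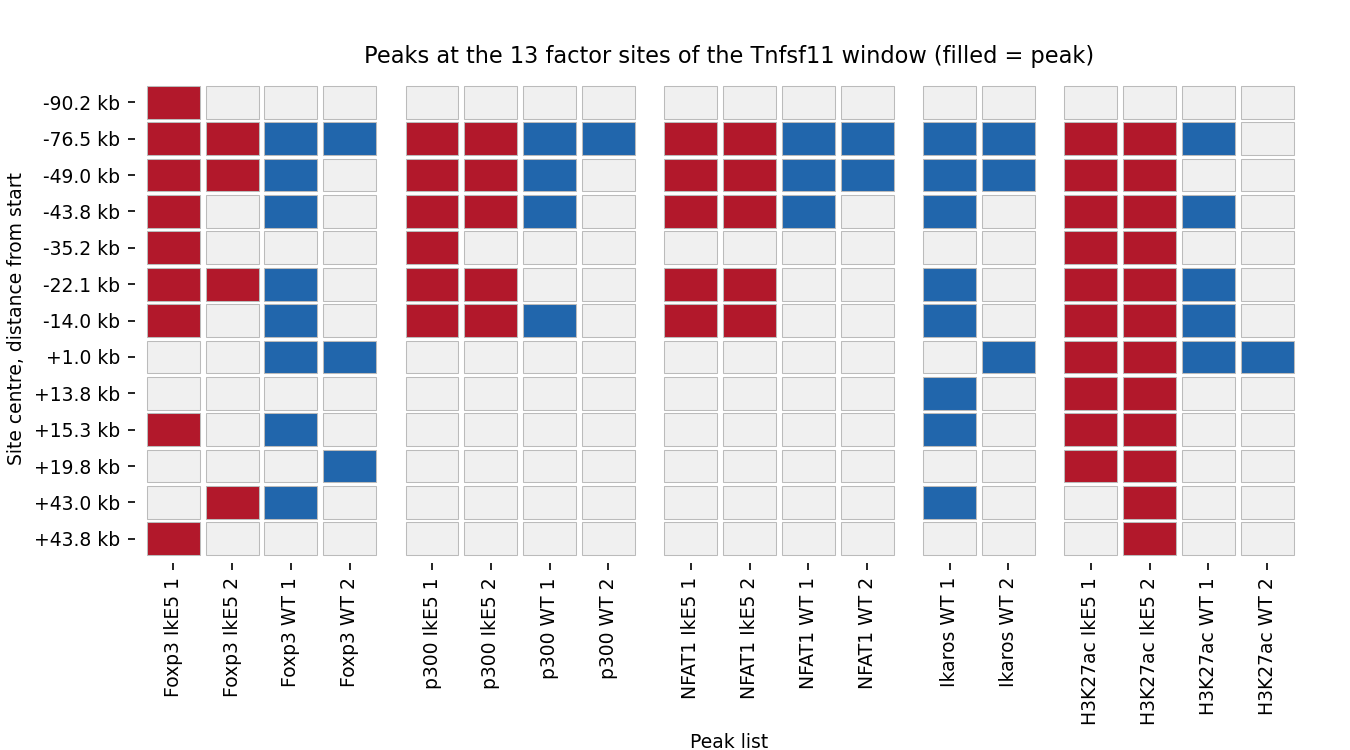
Presence (filled; IkE5 red, WT blue) or absence (grey) of a peak at each of the 13 factor sites (rows, by distance of the centre from the start of Tnfsf11) in each list (columns), with overlap by H3K27ac at the right. The -76.5 kb row is filled in all 14 factor columns, and NFAT1 at -22.1 and -14.0 kb is filled in the IkE5 columns only.

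NFAT1, which calcium signals send to the nucleus, thus had more called peaks at Tnfsf11 in IkE5 although its IkE5 lists were shorter over the genome. The window held 5 and 5 NFAT1 peaks in IkE5 and 3 and 2 in WT. As a share of all peaks of its list this was 0.102% and 0.146% in IkE5 and 0.0383% and 0.0292% in WT. Both IkE5 libraries were above both WT libraries on either scale, an order that 2.27% of the 13270 genes with any NFAT1 peak in such a window showed by number and 16.5% by share. Of the 5 NFAT1 regions 2 were IkE5 only, 0 were WT only and 2 were in all 4 lists, while over the genome 3.72% of 11087 NFAT1 regions were IkE5 only, 19.4% were WT only and 17.5% were in all 4. There were 98 genes of 21883, Tnfsf11 among them, with 2 or more IkE5 only NFAT1 regions in the gene or within 100 kb. That total includes genes without any NFAT1 peak there, and neighbouring genes share such windows, so the count only describes the locus. The gene was chosen by its H3K27ac, and whether NFAT1 regions go with such a gain at other genes was not tested.

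The coactivator p300, which acetylates histones at enhancers, had 6 and 5 peaks in the window in IkE5 and 4 and 1 in WT. The groups did not overlap, but the lowest IkE5 and the highest WT library differed by a single peak, and 8.09% of the 16001 genes with any p300 peak in such a window showed this order by number and 10.8% by share of the list. The -22.1 kb region was the 1 IkE5 only region among 6, with 0 WT only, against 6.01% and 5.63% of 18546 p300 regions of the genome, and 14.6% of all genes had at least 1 such region within 100 kb. The -76.5 kb region was in all 4 lists, as were 22.9% over the genome. A count of 1 in 6 is no result about this locus. Without WT library 1 the number of IkE5 only p300 regions was 4, and without IkE5 library 2 it was 2. With a list left out such a count can only stay or rise.

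Foxp3, the factor that defines Treg cells, had 9 and 4 peaks in the window in IkE5 and 8 and 3 in WT. These groups overlapped, and library 1 exceeded library 2 in both genotypes. None of 12 Foxp3 regions was IkE5 only, against 3.22% of 34646 over the genome, and 1, at -76.5 kb, was in all 4 lists, against 22.5%. The 1 WT only region, against 2.44%, lay 1.0 kb inside the gene (chr14:78306687-78307329). Ikaros had a peak at that site in WT library 2, and H3K27ac covered it in all 4 lists. Leaving out WT library 1 gave 2 IkE5 only and 2 WT only regions, and leaving out IkE5 library 2 gave 3 IkE5 only regions. These counts too follow a looser rule and could only stay or rise. Elsewhere in the gene Foxp3 had a peak at 15.3 kb in library 1 of each genotype and at 19.8 kb in WT library 2, and H3K27ac overlapped both places in each IkE5 library and in no WT library.

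Ikaros, mapped in WT, had 8 peaks in library 1 and 3 in library 2, at 9 of the 13 sites. The libraries shared 2 sites, those at -76.5 and -49.0 kb. Ikaros library 2 had the longer list over the genome and the fewer peaks here. Every NFAT1 site of the window, also where NFAT1 was called in WT, had an Ikaros peak in library 1. Ikaros library 1 also had peaks at 13.8, 15.3 and 43.0 kb, where NFAT1 had none. At -43.8, -22.1 and -14.0 kb Ikaros library 2 had no peak, and NFAT1 was IkE5 only at -22.1 and -14.0 kb. The share of NFAT1 sites over the genome with an Ikaros peak was not computed, so this overlap only describes the window.

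The edge of the window cut through an acetylated stretch. An H3K27ac region at chr14:78406814-78412295, in both IkE5 libraries and WT library 1, crossed the upstream end. The last factor site inside was at -90.2 kb, with Foxp3 in IkE5 library 1 only. Just outside, at -101.1 kb (chr14:78408878-78409489) and at -102.2 kb (chr14:78409911-78410585), p300 had peaks in the IkE5 libraries 1 and 2 and in no WT library, as did NFAT1 at -102.2 kb. Further out, between -112.4 and -166.2 kb, p300 was present in both IkE5 libraries at 2 sites (-112.4 and -166.2 kb) and in both WT libraries at 5, these 2 among them. At -130.2 kb the pattern ran the other way. There p300 had a peak in both WT libraries and no IkE5 library, and NFAT1 in both WT libraries and IkE5 library 1. With 200 kb on each side H3K27ac covered 84.5 and 74.8 kb in IkE5 and 41.6 and 11.6 kb in WT, a log2 difference of 1.77. No other protein-coding gene lay in the window. The nearest were Akap11, an anchor protein gene whose nearer end lies 184 kb upstream, and Fam216b, whose nearer end lies 219 kb from the start on the downstream side.

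Of the genes that receive or process RANKL, 1 was called, the adaptor gene Gab2. The lists for the pathway held 3 receptor genes, 25 genes of RANK signalling and 3 protease genes, and were compared by limma over 12711 genes with Benjamini-Hochberg adjustment, on H3K27ac covered length in the gene and 10 kb on each side. Over all genes 0.740% were called higher and 0.385% lower in IkE5 at an adjusted p of 0.05. Of the receptors, the RANK gene Tnfrsf11a had 1.65 and 0 kb in IkE5 and 0.65 and 0.50 kb in WT, under the minimum for the fit, and Tnfrsf11b was at 0 in all 4 lists. Lgr4, a further receptor for RANKL, had a log2 difference of 0.10 ± 0.21 (SE, limma adjusted p = 0.968). Of the 25 signalling genes 1 was called higher and 0 lower, with a median log2 difference of 0.12 against -0.02 over all genes. That gene was Gab2, an adaptor recruited to RANK, with 7.64 and 6.79 kb in IkE5 and 2.16 and 1.65 kb in WT, a log2 difference of 1.49 ± 0.19 (SE, limma adjusted p = 0.0137). In the same window the difference of Tnfsf11 itself was 1.67. The call for Gab2 ended when the lists were not scaled and when 100 kb on each side were taken. Nfkb1, a subunit of the transcription factor NF-kappaB, had 57.1 and 58.0 kb in IkE5 and 54.2 and 28.4 kb in WT, a log2 difference of 0.51 ± 0.21 (SE, limma adjusted p = 0.339). Nfatc1, the NFAT gene that RANK induces in osteoclast precursors, had a difference of 0.34 ± 0.19 (SE, limma adjusted p = 0.566). None of Adam10, Adam17 and Mmp14, whose products can shed cytokines such as RANKL from the membrane, was called.

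By regions, 8 of the 25 signalling genes had an IkE5 only H3K27ac region in the gene or within 10 kb and 4 a WT only one, where 11.2% and 13.3% of genes with any H3K27ac region did. The 8 were Traf2, Traf3, Traf5, Tab2, Map3k14, Relb, Mapk14 and Nfatc1, and the 4 were Map3k14, Ikbkb, Fos and Cyld. Gab2 had neither. Of the 7 Treg markers 4 likewise had an IkE5 only H3K27ac region in the gene or within 10 kb, and 0 a WT only one. Genes with more H3K27ac regions have more room for such a region. Whether the signalling genes differ from genes of like coverage was not tested. Traf2, Traf3 and Traf5 encode adaptors of RANK, and Map3k14, which had a region of either class, encodes the kinase of the alternative NF-kappaB route. For p300 Traf5 and Nfkb1 had an IkE5 only region and Nfkb1, Relb and Mapk14 a WT only one, with 8.56% and 11.3% of genes. For NFAT1 Traf5 and Nfatc1 had an IkE5 only region (4.61% of genes) and Traf2, Traf3 and Fos a WT only one (31.1%). For Foxp3 Gab2 and Nfatc1 had an IkE5 only region (7.25%) and Chuk and Relb a WT only one (6.31%). Among the proteases, Adam10 and Mmp14 had a WT only region of p300 and of NFAT1, and Adam17 of Foxp3. The receptor genes had none of either class.

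The genes most like Tnfsf11 across the lists were sought by Pearson correlation over the 16 lists of H3K27ac, p300, NFAT1 and Foxp3, each centred within its target, in the gene and 100 kb on each side. Among 12989 genes more than 1 Mb from Tnfsf11 with a peak of every target, the highest included Vash1 (r = 0.95), Arntl2 (0.91), Nckap5 (0.90) and Runx2 (0.90). The points share libraries and list lengths, and some of these genes had few peaks, so the correlations only describe likeness. Runx2, which encodes a transcription factor of bone-forming cells that T cells can also express, had 139 and 88.0 kb of H3K27ac in IkE5 and 46.4 and 12.4 kb in WT, and 7 and 7 NFAT1 peaks in IkE5 and 3 and 4 in WT. Vash1, an angiogenesis inhibitor gene, had 8.97 and 6.84 kb of H3K27ac in IkE5 and 3.59 and 0.629 kb in WT, with 1 and 1 NFAT1 peaks in IkE5 and 0 and 0 in WT. Arntl2, a circadian factor gene, had 40.6 and 19.7 kb in IkE5 and 18.7 and 5.78 kb in WT.

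Stromal cells of lymph nodes, bone-forming cells and innate lymphoid cells also make RANKL, so their markers were counted by H3K27ac within 10 kb. Such a mark is common, as 14787 of 21883 protein-coding genes had it there in any of the 4 lists. The share per list was not computed. Neighbouring genes share such windows, so the marker counts below only describe the lists. Of 8 stromal and bone-forming markers 5 and 3 had H3K27ac in the IkE5 lists and 4 and 3 in the WT lists, summing to 119 and 71.5 kb in IkE5 and 45.6 and 14.4 kb in WT. Most of that sum was Runx2, with 112 and 68.0 kb in IkE5 and 40.1 and 11.9 kb in WT, and Col1a2, Lepr and Cxcl13 were at 0 in all 4 lists. Madcam1 and Sp7 had H3K27ac in all 4 lists. Of 5 innate lymphoid markers 4 and 4 had H3K27ac in IkE5 and 3 and 3 in WT, with sums of 13.9 and 4.10 kb in IkE5 and 20.1 and 6.06 kb in WT, and Ncr1 was at 0. B cell markers summed to 12.8 and 11.7 kb in IkE5 and 18.4 and 18.1 kb in WT, with 3 of 4 markers in each list and Ms4a1 at 0. Most of the B cell sum was Cd79a, with 11.4 and 10.6 kb in IkE5 and 15.2 and 15.2 kb in WT. Myeloid markers summed to 7.74 and 8.36 kb in IkE5 and 13.2 and 7.87 kb in WT, with 3 and 3 of 6 markers in IkE5 and 3 and 2 in WT, and Csf1r, Lyz2 and Adgre1 at 0. The part of other cells in the Tnfsf11 values was not tested.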

How the data were processed

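Chromatin immunoprecipitation sequencing of Treg cells gave 18 deposited peak lists, 1 per library. The lists hold chromosome, start and end, in mm10, and no score, height or read number. Per the submitters' processing notes, FastQC, Bowtie2, MACS2, bedtools and HOMER were used. The peak caller's threshold and control are not given in the sources used here. Fixation lasted 5 min for H3K27ac and 30 min for the factors, per the labels' protocols. The 4 inputs had no list and were not analysed here. Factor peaks were 500 bp wide with rare exceptions, so their width carries no signal, and H3K27ac peaks were 500 bp or wider. Longer lists can reflect depth, enrichment or threshold as well as binding. At most 0.745% of intervals were identical between any of the 153 pairs of lists, and all libraries were kept.

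Gene positions and names came from RefSeq (GRCm38.p6), with 21883 protein-coding genes, and the strands of Tnfsf11 and Gm30662 from their promoter entries. Covered length is the union of peaks of a list inside a window, scaled to the list's total covered length, and compared on log2(length + 1000 bp). Across genes limma 3.58.1 in R 4.3.3 was fitted with a trended prior to genes averaging 1000 bp or more (p-values adjusted by Benjamini-Hochberg). It was tested on simulated data with known changes. Nothing in the labels says that libraries came from separate animals, so p-values measure spread that may be technical. The gene, the window, the gene lists and the tests were chosen with earlier results of these data known. Named genes were Tnfsf11, genes overlapping its window, pathway genes that passed limma or had a genotype-specific region, and the 5 most alike by correlation, of which 1 is not reported here, nor is 1 B cell marker; the neighbours Akap11 and Fam216b and the values of Lgr4, Tnfrsf11a and Nfkb1 were added. Factor peak numbers were compared per list with 1 added before the log2 step in the search for like genes. Alternatives covered the window, scaling, added length, joining rule, peak width, low-coverage filter, libraries left out and the replicate block.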

Additional observations from a re-analysis of the deposited data

How the results depend on the processing

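The H3K27ac difference at Tnfsf11, by which the gene was chosen, kept its direction under all 16 alternatives tried. It was 1.38 (log2) within the libraries numbered 1 and 2.90 within those numbered 2. With a library left out it ran from 1.46 without WT library 2 to 2.82 without WT library 1. Because both IkE5 libraries lay above both WT libraries, none of these settings could have reversed it. The mean over the replicate numbers is the main difference itself. The replicate numbers are only shared labels, and the deviations of same-numbered H3K27ac lists from their genotype means correlated at 0.46 over genes. With the replicate block, limma called 638 genes higher and 610 lower in IkE5, against 94 and 49 without it.

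The number of IkE5 only H3K27ac regions (7) was 4 with 10 kb flanks and 4 with peaks joined within 500 bp, 20 within number 1 and 22 within number 2, and 7 to 20 with a library left out. WT only H3K27ac regions (0) were 4 within number 1 and 0 to 3 with a library left out. IkE5 only p300 regions (1) were 0 with 10 kb and 3 with 200 kb flanks, 2 within number 1 and 4 within number 2, and 1 to 4 with a library left out. WT only p300 regions (0) were 1 with 200 kb flanks. IkE5 only NFAT1 regions (2) were 0 with 10 kb flanks, where no NFAT1 site lies. IkE5 only Foxp3 regions (0) were 3 within either number and 0 to 3 with a library left out, and WT only Foxp3 regions (1) were 2 within either number and 1 to 2 with a library left out. For every target, counts within a number or with a library left out follow a looser rule and can only stay or rise.

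The excess of peaks in IkE5 over WT with 10 kb flanks was 5.5 for H3K27ac (14.5 with 100 kb) and 0 for p300 (3) and NFAT1 (2.5), and NFAT1 had 4.5 with 200 kb. With a library left out it ran from 8 without WT library 2 to 21 without WT library 1 for H3K27ac, and from 1.5 to 4.5 without the same libraries for p300. For Foxp3 it turned from 1 to -1.5 with 10 kb flanks, without IkE5 replicate 1 and without WT replicate 2, and ran from -1.5 to 3.5 with a library left out.

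The limma counts over all genes depended on the settings. Genes called higher in IkE5 numbered 0 without scaling (1156 at an unadjusted p under 0.05), 19 with median ratio scaling, 27 with 100 bp added and 54 without the coverage filter, and 69 to 349 with a library left out (223 without IkE5 library 1, 349 without IkE5 library 2, 301 without WT library 1). Genes called lower numbered 0, 3, 10 and 24 under the same settings and 32 to 306 with a library left out (124 without IkE5 library 1, 306 without IkE5 library 2, 91 without WT library 1, 32 without WT library 2), where the lone library is assumed to vary like the others. The 1 signalling gene called higher became 0 without scaling and 0 with 100 kb flanks, and 1 to 2 with a library left out (2 without IkE5 library 2 and without WT library 1). Why these counts moved was not tested. Peak lists carry no reads, so an absent peak may be a weak one.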
